A study of Homo sapiens with 4 samples.

Results

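HMOX1, the inducible heme oxygenase, was read together with 5 further targets of the transcription factor NRF2 (NQO1, GCLC, GCLM, TXNRD1 and SRXN1) and with 4 of its regulators (NFE2L2, KEAP1, BACH1 and MAFG). The 10 genes were chosen by symbol, and all 10 were found among the 57820 genes of the deposited table. RNA was sequenced from 786-0, an established line of human renal carcinoma cells kept in DMEM with 10% FBS. All cells had been starved of amino acids for 12 h, and they carried a short hairpin RNA that was non-targeting (shNT, 2 libraries) or directed at GLUD1 (shGLUD1, 2 libraries), so no fed cells and no untransduced cells were compared. The sources used here do not say whether each line was a pool or 1 clone, how many hairpin sequences were used, or whether replicates were separate cultures. The p-values therefore reflect the spread among 4 libraries, which may be technical. Those from limma also borrow spread from other genes (median prior of 8.80 degrees of freedom).

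NRF2, the product of NFE2L2, pairs with a small MAF protein such as MAFG and binds antioxidant response elements in the genes of oxidant defence. KEAP1 holds NRF2 and hands it to the CUL3 ubiquitin ligase for destruction until oxidants or electrophiles modify KEAP1. BACH1 pairs with the same small MAF proteins and represses many of the same sites, HMOX1 above all, until heme binds BACH1 and releases it. HMOX1 is also induced by heat shock and by proteotoxic and metal stress, whereas NQO1 and the glutathione and thioredoxin genes are read more narrowly as NRF2 targets. HMOX1 opens heme to biliverdin, carbon monoxide and iron.

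The sequence that NRF2 and BACH1 read is shown here where the RefSeq promoter table of GRCh38.p14, which spans 250 bases before to 50 bases after each annotated start, held it for these genes. Of the 10 genes 9 matched that table, all but HMOX1, with 14 windows. The core TGACNNNGC, searched on both strands, was found 6 times in windows of 3 genes (GCLM, TXNRD1 and KEAP1), and 13.3% of all 35116 windows hold it. Sequence outside these windows was not searched, so a window without the core does not mean that its gene lacks the element. Its opening bases also open the binding site of AP-1. Of these copies 3 are printed, 1 per gene, because GCLM and TXNRD1 were called higher on TPM and KEAP1 was not. Each is shown on the strand that reads the core, with the core in capitals and 10 bases on each side.
GCLM, chr1:93909446-93909474, plus strand: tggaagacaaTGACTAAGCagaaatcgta
TXNRD1, chr12:104286920-104286948, minus strand: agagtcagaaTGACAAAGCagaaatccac
KEAP1, chr19:10502784-10502812, plus strand: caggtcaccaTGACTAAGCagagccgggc
In GENCODE release 29 each of these 3 sites overlaps an exon annotated as UTR in at least 1 transcript of its gene. For GCLM the core spans 93909456 to 93909464 and the annotated gene ends at 93909456, so they share only that base. Each core lies before the RefSeq start of its window. GCLM and KEAP1 hold the same 9 letters, TGACTAAGC. A heat shock element of 3 alternating GAA units (0.49% of all windows) and the CHOP-ATF4 composite element (TGATGNAA, 3.62%) were found in none of the 14 windows, on either strand. A match is a description of these letters and was not tested as a site.

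The deposited values are TPM, transcript abundances per length scaled to a sum of 1000000 in each library, which keep no read totals, so depth is unknown. Genes above 0 numbered between 19724 and 20489 per library. GLUD1, the gene the hairpin is named for, had 18.1 and 17.4 TPM in shNT against 13.5 and 19.8 TPM in the pair labelled shGLUD1. These groups overlapped (log2 fold change -0.11, limma adjusted p = 0.631; rescaled as below -0.83, 0.00233), and every direction below is drawn from the label of the libraries. Over the 12524 genes tested, the median log2 fold change of shGLUD1 against shNT was 0.63. Each change of the 10 genes is therefore given on TPM and again with libraries rescaled by median ratio, so that the median gene has no change. Of the renal carcinoma markers, VIM (891 to 3756 TPM), KRT8 (41.5 to 64.1), CA9 (22.1 to 72.4), EPAS1 (8.86 to 26.1) and PAX8 (5.18 to 8.75) were present in every library, KRT18 lay between 0.66 and 1.87 TPM, and PAX2 and CDH6 were at or near 0. Leukocyte, endothelial and red cell markers summed to at most 1.24, 0.15 and 0.88 TPM, with PTPRC at or below 0.01. The 4 fibroblast markers summed to 22.9 and 19.1 TPM in shNT and to 54.1 and 58.9 TPM in shGLUD1, and of the 3 that were tested all rose on TPM and only COL1A2 rescaled. VIM, which fibroblasts also express, rose from a mean of 911 to 3329 TPM (1.86, rescaled 1.09, both called). The part of this in the results below was not tested.

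In shGLUD1, HMOX1 and NQO1 were lower and GCLM, TXNRD1, NFE2L2 and BACH1 were higher on TPM, while GCLC, SRXN1, KEAP1 and MAFG did not pass the test. HMOX1 had the largest change of the 10, a 6.54-fold lower mean TPM. Counted over the 10 genes, which all passed the filter of a mean of at least 1 TPM, 4 were called higher and 2 lower by limma at an adjusted p under 0.05, against 56.7% and 7.77% of all genes tested. After rescaling none was called higher and 5 were called lower (HMOX1, NQO1, SRXN1, KEAP1 and MAFG), against 23.2% and 27.9% of all genes. The median log2 fold change of the 10 was 0.38 on TPM and -0.30 rescaled. With either direction counted together, 6 of the 10 were called on TPM against 64.5% of all genes, and 5 rescaled against 51.1%. The count called higher fell from 4 to 2 without shNT replicate 1 or without shGLUD1 replicate 2. The groups did not overlap on TPM for 8 of the 10 genes, 5 higher and 3 lower, against 69.9% and 13.5% of all genes in these directions and 83.4% in either.

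**Figure D1:**
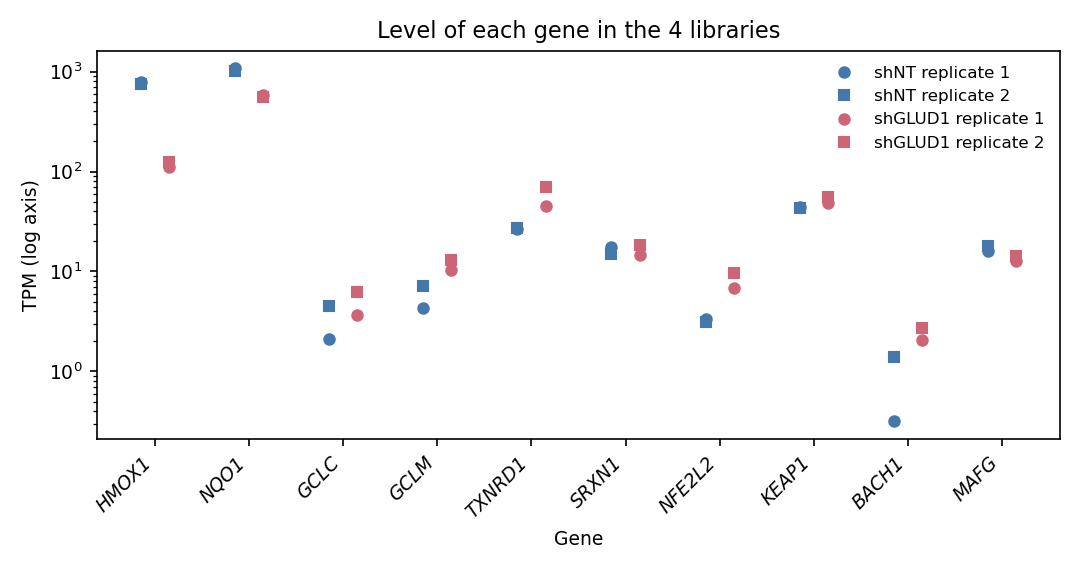
TPM of each of the 10 genes (log axis) in the 2 shNT libraries (blue) and the 2 shGLUD1 libraries (red), circles for replicate 1 and squares for replicate 2. NQO1 and HMOX1 lie far above the rest in shNT, and HMOX1 drops from 789 and 749 TPM to 110 and 125 TPM.

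HMOX1 (ENSG00000100292, GRCh38 chromosome 22, 35380361 to 35394214, plus strand, protein-coding) had 789 and 749 TPM in shNT against 110 and 125 TPM in shGLUD1. Both shGLUD1 libraries lay far below both shNT libraries, and the replicates of each group were close. The means were 769 ± 28 TPM and 118 ± 10 TPM (SD, n = 2 each), and the change was -2.70 on the log2(TPM + 1) scale (SE 0.10, limma adjusted p = 3.7e-08). After rescaling it was -3.46 (SE 0.11, limma adjusted p = 1.02e-06). HMOX1 was the 17th lowest of the 12524 genes tested on TPM. With each library left out in turn its value lay between -2.79 and -2.61. A fit without 1 library keeps only 1 library in that group. Its calls, here and elsewhere, rest on the spread of 1 pair and on spread borrowed from other genes.

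NQO1, a quinone reductase widely used as a readout of NRF2, was the most abundant of the 10 genes in every library (ENSG00000181019, chromosome 16, 69706996 to 69726951, minus strand). It stood at 1078 and 1006 TPM in shNT and at 585 and 562 TPM in shGLUD1, with no overlap. Its mean was 1.82-fold lower in shGLUD1 (log2 fold change -0.86, SE 0.09, limma adjusted p = 2.41e-05; rescaled -1.62, 0.000131 as the adjusted p). HMOX1 and NQO1 made up 94.3% and 93.6% of the summed TPM of the 10 genes in shNT and 82.9% and 78.3% in shGLUD1. The sum itself was 1981 and 1875 TPM in shNT against 839 and 877 TPM in shGLUD1.

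The glutathione pair was scarce. GCLM, the modifier subunit of glutamate-cysteine ligase (ENSG00000023909, chromosome 1, 93885205 to 93909456, minus strand), stood at 4.34 and 7.10 TPM in shNT and at 10.4 and 13.1 TPM in shGLUD1. Both shGLUD1 libraries were above both shNT libraries, and the mean was 2.06-fold higher (log2 fold change 0.95, SE 0.24, limma adjusted p = 0.00548). The rescaled value of 0.27 did not pass (limma adjusted p = 0.312). The call on TPM was also lost without shNT replicate 1 (0.65, limma adjusted p = 0.1) and without shGLUD1 replicate 2 (0.79, 0.0763). GCLC, the catalytic subunit of the same enzyme (ENSG00000001084, chromosome 6, 53497341 to 53616970, minus strand), stood at 2.09 and 4.50 TPM in shNT and at 3.71 and 6.21 TPM in shGLUD1. Its groups overlapped and its log2 fold change of 0.50 (SE 0.32) did not pass (limma adjusted p = 0.185). With 1 library left out it ran from 0.08 to 0.92, and without shNT replicate 2 it was called higher (0.92, limma adjusted p = 0.0479). In every library GCLC TPM was below GCLM TPM, with a ratio of 0.482 and 0.634 in shNT and of 0.357 and 0.474 in shGLUD1.

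TXNRD1, the cytosolic thioredoxin reductase (ENSG00000198431, chromosome 12, 104215779 to 104350305, plus strand), stood at 26.3 and 27.3 TPM in shNT and at 45.3 and 69.5 TPM in shGLUD1. The shGLUD1 libraries were both higher but differed from each other more than the shNT libraries did. The mean was 2.14-fold higher (log2 fold change 1.04, SE 0.18, limma adjusted p = 0.000601), and the rescaled value of 0.30 did not pass (limma adjusted p = 0.127). RPL18AP3, a ribosomal protein pseudogene, overlaps TXNRD1 on the same strand (69.3, 55.9, 44.3 and 40.9 TPM in the order shNT then shGLUD1). An antisense gene also overlaps it (20.1, 21.9, 27.2 and 27.6 TPM). The split of reads among them is uncertain. For the antisense gene, the sources used here do not give the strand setting. SRXN1, sulfiredoxin, which restores over-oxidised peroxiredoxins (ENSG00000271303, chromosome 20, 646615 to 653370, minus strand), stood at 17.7 and 15.0 TPM in shNT and at 14.6 and 18.6 TPM in shGLUD1. The groups overlapped on TPM (log2 fold change 0.02, SE 0.18, limma adjusted p = 0.933), and the rescaled value of -0.70 was called lower (limma adjusted p = 0.00436).

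HMOX1 was then set against each of the other 5 targets within the same library, since a ratio of TPM in 1 library does not depend on how libraries are scaled. HMOX1 TPM was 0.733 and 0.745 of NQO1 TPM in shNT and 0.189 and 0.222 of it in shGLUD1, a 3.604-fold lower ratio. Against SRXN1 the ratio was 44.6 and 50.1 in shNT and 7.54 and 6.73 in shGLUD1, which is 6.63-fold lower. Against TXNRD1 it was 30.0 and 27.5 in shNT and 2.44 and 1.80 in shGLUD1, 13.7-fold lower. Against GCLM it went from 181.9 and 105.6 to 10.6 and 9.53, and against GCLC from 378 and 167 to 29.8 and 20.1. In all 5 ratios both shGLUD1 libraries lay below both shNT libraries. The ratio to NQO1 had the smallest difference of the 5. NQO1 TPM per TXNRD1 TPM was 40.9 and 36.9 in shNT and 12.9 and 8.09 in shGLUD1.

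Taken against the mean log2(TPM + 1) of the 5 targets, HMOX1 stood 5.003 and 4.697 log2 units above them in shNT and 1.91 and 1.73 above them in shGLUD1. The difference between groups was -3.03 log2 units, with SDs of 0.22 in shNT and 0.13 in shGLUD1 (n = 2 each). An exact two-sided permutation test over 2 against 2 libraries gave p = 0.333, the smallest it can give. With each library centred on those 5 genes, the limma fit over all genes gave HMOX1 the same -3.03 with an SE of 0.27 and an adjusted p of 3.6e-20. That small p rests on a spread borrowed from other genes (prior of 189.8 degrees of freedom) rather than on these 4 values alone.

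**Figure D2:**
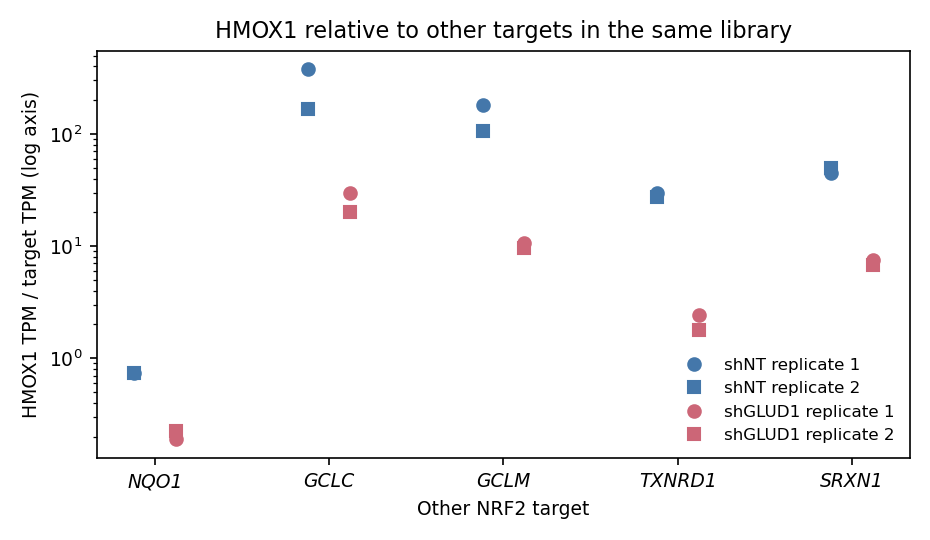
HMOX1 TPM divided by the TPM of each other NRF2 target in the same library (log axis), shNT in blue and shGLUD1 in red, 1 point per library. All 5 ratios are lower in both shGLUD1 libraries, least for NQO1 (0.733 and 0.745 to 0.189 and 0.222).

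Among the regulators, NFE2L2 (ENSG00000116044, chromosome 2, 177227595 to 177392697, minus strand) stood at 3.35 and 3.10 TPM in shNT and at 6.78 and 9.74 TPM in shGLUD1. Both shGLUD1 libraries were higher, with a 2.56-fold higher mean (log2 fold change 1.11, SE 0.24, limma adjusted p = 0.00199). The rescaled value of 0.48 did not pass (limma adjusted p = 0.0548). AGPS overlaps NFE2L2 on the opposite strand (1.89, 2.21, 3.18 and 4.67 TPM, shNT then shGLUD1), so the split of reads there is uncertain. KEAP1 (ENSG00000079999, chromosome 19, 10486120 to 10503741, minus strand) stood at 43.7 and 43.0 TPM in shNT and at 48.2 and 56.3 TPM in shGLUD1. Its groups did not overlap, but the log2 fold change of 0.26 (SE 0.13) did not pass (limma adjusted p = 0.097), and the rescaled value of -0.49 was called lower (0.00675 as the adjusted p). Without shGLUD1 replicate 1 it was called higher on TPM (0.37, limma adjusted p = 0.0321). KEAP1 TPM exceeded NFE2L2 TPM in every library, and NFE2L2 TPM per KEAP1 TPM was 0.0767 and 0.0721 in shNT and 0.141 and 0.173 in shGLUD1. Over 2 against 2 libraries the exact permutation p of this ratio was 0.333, again the smallest possible.

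BACH1, the repressor of HMOX1 (ENSG00000156273, chromosome 21, 29194071 to 29630751, plus strand), was the scarcest of the 10 genes in every library. It stood at 0.32 and 1.38 TPM in shNT and at 2.07 and 2.72 TPM in shGLUD1, without overlap, but the shNT libraries differed from each other by more than the shGLUD1 libraries did. The change was 0.93 in log2 units (SE 0.31, limma adjusted p = 0.0214), and the rescaled value of 0.50 did not pass (limma adjusted p = 0.21). The call on TPM was lost without shNT replicate 1 (0.51, limma adjusted p = 0.284), without shGLUD1 replicate 1 (1.07, 0.0629) and without shGLUD1 replicate 2 (0.79, 0.145). The same shNT replicate 1 was the lowest library for GCLC and GCLM. MAFG, the small MAF partner (ENSG00000197063, chromosome 17, 81918270 to 81927714, minus strand), stood at 15.95 and 18.08 TPM in shNT and at 12.8 and 14.2 TPM in shGLUD1. Its groups did not overlap, its log2 fold change of -0.31 (SE 0.17) did not pass (limma adjusted p = 0.121), and its rescaled value of -1.03 was called lower (0.000606 as the adjusted p). SIRT7 overlaps MAFG on the same strand (57.0, 60.3, 48.7 and 47.7 TPM), so the split of reads there is uncertain.

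**Figure D3:**
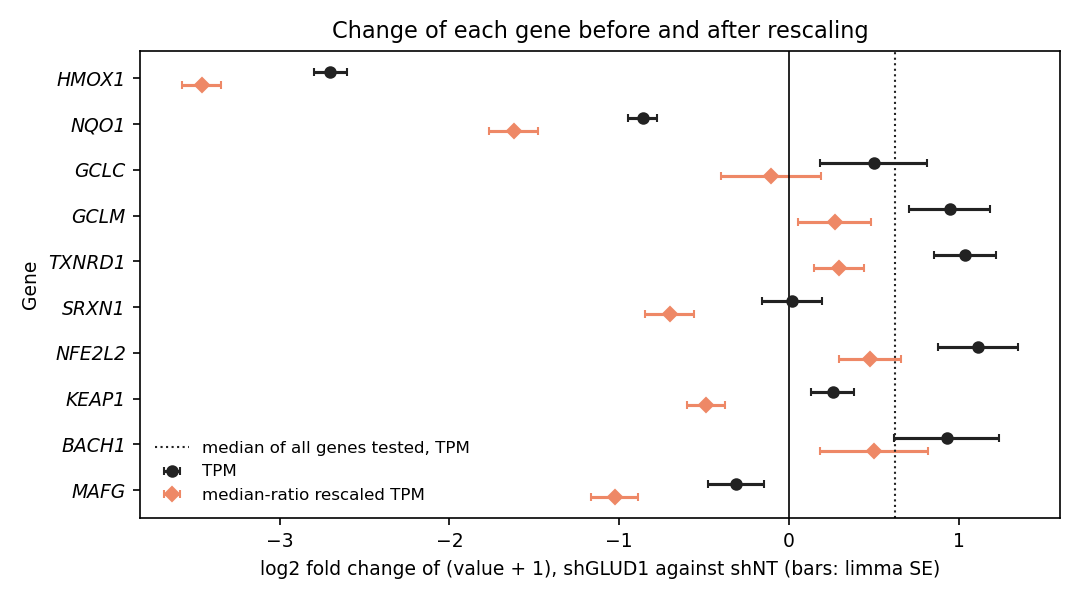
log2 fold change of each gene in shGLUD1 against shNT on TPM (black circles) and after median-ratio rescaling (orange diamonds), with limma SEs; the dotted line is the median of all genes tested on TPM, 0.63. HMOX1 lies at -2.70 and -3.46, and NQO1 at -0.86 and -1.62, while NFE2L2, GCLM, TXNRD1 and BACH1 lie above 0 on both scales, with no rescaled value of these 4 passing the test.

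The order of levels, which TPM allows because it is per length, was nearly the same in all libraries. NQO1 was the highest and HMOX1 the next in every library, and BACH1 the lowest. KEAP1 was above TXNRD1 in both shNT libraries and in shGLUD1 replicate 1 (48.2 against 45.3 TPM) and below it in shGLUD1 replicate 2 (56.3 against 69.5 TPM). In shNT the KEAP1 and TXNRD1 libraries did not overlap, and in shGLUD1 they did. SRXN1 and MAFG changed places within shNT, where SRXN1 had 17.7 and 15.0 TPM, so their shNT levels overlapped. NFE2L2 and GCLC also overlapped in shNT and did not overlap in shGLUD1.

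The closest patterns to HMOX1 were found by the root mean square difference of mean-centred log2(TPM + 1) over the 4 libraries, over 7230 genes whose mean reached 5 TPM. The nearest was SLC3A2, an amino acid transporter heavy chain (0.029 log2 units), with 769.97 and 768.80 TPM in shNT against 111 and 123 TPM in shGLUD1. GADD45B, a growth arrest gene, came next (0.048), with 174 and 167 TPM in shNT against 25.0 and 29.3 TPM in shGLUD1. ID2, an inhibitor of helix-loop-helix factors (0.10), DDIT3, the stress factor CHOP (0.10), and CCL26, a chemokine (0.11), followed, with log2 fold changes of -2.50, -2.52 and -2.48 (rescaled -3.20, -3.28 and -3.20). SLC3A2 and DDIT3 are on the list of ATF4 and CHOP genes described below. None of these 5 is on the list of 28 further NRF2 targets described next, which is short beside the 7230 genes compared.

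A list of 28 further NRF2 targets beside the 10 genes held 24 genes above the filter. Of these, 8 rose, 5 fell and 11 did not pass on TPM, beside 56.7% higher and 7.77% lower among all genes, with a median log2 fold change of 0.29 against 0.63. Rescaled, 2 were higher and 13 lower, beside 23.2% and 27.9%. AKR1C3, an aldo-keto reductase, rose (4.97 ± 0.33 to 18.5 ± 0.67 TPM, log2 fold change 1.71), as did ABCC1, a glutathione conjugate exporter (1.12), and both were also called higher rescaled (1.03 and 0.56). The rescaled call of ABCC1 was lost with any 1 of the 4 libraries left out (0.55 to 0.58), and its call on TPM was lost under quantile normalization (0.42, limma adjusted p = 0.0899). GSR, glutathione reductase, rose on TPM (0.90) and did not pass rescaled (0.18). The 5 that fell were SQSTM1, the autophagy receptor that competes for KEAP1 (-0.65), EPHX1 (-0.49), OSGIN1 (-0.46), TXN, thioredoxin (-0.44), and TKT (-0.29). Rescaled, these 5 lay between -1.41 and -1.05 and were all called lower. With trends of length and GC removed, EPHX1 (-0.25), OSGIN1 (-0.23) and TXN (-0.029) lost their calls. Over the 24 tested genes the log2 fold changes ran from -0.65 to 1.71. On TPM itself, SLC7A11, the cystine transporter, had a 1.94-fold lower mean without passing the test (log2 fold change -0.56, limma adjusted p = 0.0915; called lower rescaled), and ALDH3A1, under the filter, a 4.85-fold lower one (0.97 to 0.20 TPM). Both were named after their values were seen.

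Of 6 tested genes of heme breakdown and iron storage, 4 rose, 1 fell and 1 did not pass on TPM, and 1 was higher and 2 lower rescaled, beside the same shares of all genes. HMOX2, the constitutive heme oxygenase, stood at 29.3 and 29.4 TPM in shNT and at 42.3 and 44.5 TPM in shGLUD1 (log2 fold change 0.55, limma adjusted p = 0.0034; rescaled -0.19, not passing). HMOX1 TPM per HMOX2 TPM was 26.9 and 25.5 in shNT and 2.61 and 2.81 in shGLUD1. BLVRA, the biliverdin reductase that acts after HMOX1, rose from 46.3 ± 0.54 to 106 ± 3.1 TPM (1.18, rescaled 0.43 and also called), and BLVRB (0.43) and SLC48A1, a heme transporter (0.98), rose on TPM but not after rescaling (-0.33 and 0.27). FTL, the ferritin light chain that stores the released iron, fell from 7964 and 7294 TPM to 4557 and 4777 TPM (-0.71, rescaled -1.47). The call of FTL was lost with trends of length and GC removed (-0.18, limma adjusted p = 0.106). FTH1, the heavy chain, had a log2 fold change of -0.04 that did not pass (limma adjusted p = 0.76). SLC40A1, the iron exporter, was listed at 0 in all libraries. Of 9 genes of heme synthesis and export, 7 rose on TPM, and ALAS1, the entry enzyme, did not pass (-0.06). ALAD (1.01), CPOX (1.00), UROS (0.95) and FLVCR1 (0.85) were among those that rose, with rescaled values of 0.19 to 0.49 that missed the threshold. FLVCR1, at under 1 TPM in shNT, had 1.59 with a pseudocount of 0.1 TPM, and lost its call with trends of length and GC removed (0.54, limma adjusted p = 0.0715). Rescaled, none of these 9 was higher and 3 were lower.

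Of 10 tested genes that degrade NRF2 or BACH1 or act on KEAP1, 8 rose on TPM with none called lower; after rescaling 2 were called higher and 2 called lower. Among all genes 56.7% were called higher on TPM, and 23.2% higher and 27.9% lower rescaled. CUL1 (1.78, rescaled 1.11) and BTRC (1.24, rescaled 0.73), parts of the ligase that takes NRF2 after GSK3 phosphorylation, were higher on both scales. GSK3B (1.31) and CUL3 (1.10), the cullin that works with KEAP1, rose on TPM but missed the threshold after rescaling (0.65 and 0.42). RBX1 (0.11) and DPP3 (0.04) did not pass on TPM. Among relatives of NRF2 and MAFG, NFE2L1 (0.44), NFE2L3 (0.74) and the small MAF gene MAFK (0.36) rose on TPM, and MAFF, another small MAF, fell (-0.57, rescaled -1.30). Rescaled, NFE2L1 and MAFK were called lower (-0.32 and -0.37).

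HMOX1 was last set beside genes of the other stress responses under which it is known. Of 16 heat shock genes 11 fell, 1 rose (HSP90AB1, 0.63, rescaled -0.13, not passing) and 4 did not pass. Their median log2 fold change was -1.45, and rescaled 15 were lower and none higher. Among all genes 7.77% were called lower on TPM and 27.9% rescaled, and 56.7% and 23.2% were called higher. HSPA6 (-7.77), CRYAB (-4.53), ZFAND2A (-4.41) and HSPA1A (-4.04) fell by more than HMOX1, also rescaled (-8.42, -5.15, -5.16 and -4.55), and HSPA1A has a near-identical copy, so its share of reads is uncertain. HMOX1 TPM per TPM of DNAJB1, an abundant co-chaperone, was 0.399 and 0.412 in shNT and 0.636 and 0.613 in shGLUD1 (exact permutation p = 0.333 over 2 against 2 libraries, the smallest possible). None of the 3 heat shock factors was called lower on TPM. HSF1 rose from 64.5 and 67.7 to 89.5 and 84.8 TPM (0.39, rescaled -0.36 and called lower), HSF2 rose (1.41, rescaled 0.83) and HSF4 did not pass (0.42).

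Of 11 genes of the ATF4 and CHOP response, 8 fell, 1 rose (VLDLR, 1.53) and 2 did not pass (ASNS, 0.11, and DDIT4, -0.07), with a median of -1.33. SLC3A2 (-2.71), DDIT3 (-2.52), PPP1R15A (-2.26) and TRIB3 (-2.26) fell, and rescaled 10 of the 11 were lower. The shares of all genes called lower were 7.77% on TPM and 27.9% rescaled. Of 5 tested metallothioneins, metal-binding proteins induced by zinc and cadmium, 4 fell and MT2A did not pass (-0.04). MT1M fell from 57.4 and 58.8 to 12.9 and 9.22 TPM (-2.31), and MT1E (-1.20), MT1F (-0.91) and MT1X (-0.44) fell by less. All 5 were called lower rescaled (-3.03 to -0.80), and both counts stand beside the same shares of all genes. With trends of length and GC removed the count did not hold, since MT1F lost its call (-0.24, limma adjusted p = 0.0877), MT1X turned to 0.22 without passing and MT2A was called higher (0.62). These copies are similar in sequence, so the split between them is uncertain. These list medians are descriptions beside the 0.63 of all genes, and the lists were chosen with earlier results of these data known.

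**Figure D4:**
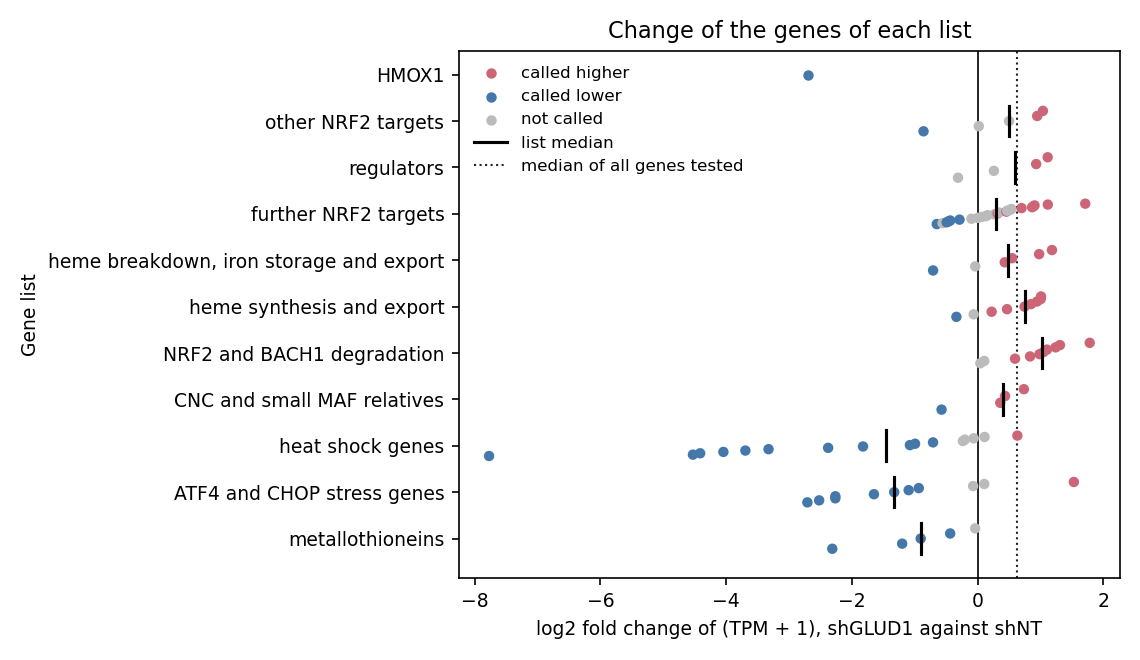
log2 fold change of TPM + 1, shGLUD1 against shNT, of each tested gene of each list except the heat shock factors (red called higher, blue called lower, grey not called), with the list median as a black bar and the median of all genes, 0.63, as a dotted line. HMOX1 at -2.70 lies outside the range of the other NRF2 lists. It lies within that of the heat shock genes (-7.77 to 0.63). It lies at the lower edge of the ATF4 and CHOP stress genes (-2.71 to 1.53), where only SLC3A2 is lower, by less than its SE. Under quantile normalization HMOX1 (-2.83) lay below SLC3A2 (-2.82).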

How the data were processed

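The authors deposited 1 table of TPM for 57820 genes and 4 libraries, and each column sums to 1000000 per library with no scaling between libraries. Per the labels' protocols, total RNA went into TruSeq V2 libraries. The builds hg38 and mm8, and Bowtie 0.12.2, appear without a role in the submitters' processing notes; the sources used here do not give the quantifier or annotation. TPM keep no depth, so no counting interval was computed. Groups came from the sample titles.

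Values were analysed as log2(TPM + 1), which understates changes of low genes, for the 12524 genes whose mean reached 1 TPM. Limma 3.58.1 in R 4.3.3 (variance trend, group as the only term, two-sided) was fitted on the whole table, calling genes at a Benjamini-Hochberg adjusted p under 0.05. The fit was also run on simulated data in which few genes changed, equally in both directions. Most genes moved in these libraries, so that run does not speak to the calls made here. Median-ratio log2 factors were -0.38 and -0.37 for shNT and 0.29 and 0.50 for shGLUD1. Python 3.11.15 made tables and figures. Coordinates are from GENCODE release 29 on GRCh38, matched by identifier. The members and lists were chosen with earlier results of these data known. From each list up to 4 passing genes with the largest change, or otherwise the 2 with the smallest p, were named, and the 5 genes most like HMOX1; some results under this rule are not reported here. Named after their values were seen were DNAJB1, FTH1, BLVRB, TKT, OSGIN1, TXN, EPHX1, SQSTM1, ALAS1, RBX1, DPP3, HSP90AB1, HSF4, VLDLR, ASNS, DDIT4 and MT2A, with 2 more marked in the text. The promoter motifs were also chosen after the table was read, before any window was searched. PECAM1 was not matched by symbol and is not used here.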

Additional observations from a re-analysis of the deposited data

How the results depend on the processing

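HMOX1 kept its direction under all 13 alternatives (log2 fold change -3.46 to -2.44), and so did NQO1. In the fits to all 4 libraries both also kept their calls (largest limma adjusted p for HMOX1 0.00165). Fits that leave out a library keep 1 library in a group. Calls gained, kept or lost in them are descriptions, since they rest on the spread of 1 pair and on other genes. HMOX1 against the 5 other targets was -3.03, -2.65 after quantile normalization and -2.57 once trends with length and GC were taken out (an alternative added after seeing the data, as was protein-coding genes only); at a mean of at least 5 TPM it could not be computed because GCLC was not tested. With each library left out it lay between -3.18 and -2.88. The count of the 10 genes called higher was 4, 0 under median-ratio rescaling and 1 under quantile normalization, and between 2 and 5 with each library left out; the count called lower was 2, 5 rescaled and 4 under quantile normalization. All genes called numbered 8078 (7105 higher, 973 lower), 6401 rescaled (2910 and 3491) and 5702 under quantile normalization (2938 and 2764), and between 6240 and 8167 with each library left out. With length and GC trends removed, 4 of the 10 genes were called higher and 3 lower, since MAFG was also called lower (-0.52, limma adjusted p = 0.0165). With the replicate block there were 8456 calls and 4 of the 10 genes higher and 2 lower. The numbers pair nothing in the labels, and the deviations of same-numbered libraries correlated at 0.0393 across genes.

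Signs turned under rescaling for GCLC (-0.10), SRXN1 (-0.70), KEAP1 (-0.49), HMOX2 (-0.19), NFE2L1 (-0.32), MAFK (-0.37), HSF1 (-0.36), BLVRB (-0.33), RBX1 (-0.65), DPP3 (-0.70), HSP90AB1 (-0.13), HSF4 (-0.15) and ASNS (-0.65). Under quantile normalization they turned for GCLC (-0.24), SRXN1 (-0.63), KEAP1 (-0.20), MAFK (-0.23), FTH1 (0.37), RBX1 (-0.19), DPP3 (-0.46), HSF4 (-0.29), ASNS (-0.31) and MT2A (0.14), and with length and GC trends removed for SRXN1 (-0.0060), MT1X (0.22), FTH1 (0.23), DDIT4 (0.21) and MT2A (0.62); the cause was not tested. With 1 library left out, signs turned for GLUD1 (up to 0.15), SRXN1 (-0.14 to 0.18), FTH1 (-0.15 to 0.076), ALAS1 (-0.16 to 0.031), DPP3 (-0.10 to 0.19), DDIT4 (-0.19 to 0.051), ASNS (-0.032 to 0.24) and MT2A (-0.12 to 0.037), none of them called on TPM. Calls also ended with length and GC trends removed for NFE2L1 (0.22) and NFE2L3 (0.48), with no filter for OSGIN1, MAFK and HSF1, and with no variance trend for NFE2L1, MAFK, HSF1, MT1X, BLVRB and TKT. Of the calls on TPM named in the text, MAFK passed in 0 of the 4 fits that leave out a library, NFE2L3 in 1, TKT, OSGIN1, EPHX1 and MT1X in 2, and FLVCR1, NFE2L1, MAFF and HSF1 in 3. Among rescaled calls named in the text, those of ABCC1, NFE2L1, MAFK, HSF1, BLVRA, BTRC, FTL and HSF2 did not hold in all of these fits. Those of MT2A (-0.98 to -0.62 with 1 library left out) and SLC7A11 (-1.25 to -0.76) did not either. Depth is unknown, so limits for the scarce genes (BACH1, GCLC, NFE2L2) cannot be given beyond their replicate spread.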
